A study of Rattus norvegicus with 20 samples.

Results

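The 8 genes described here, Gabra2, Gabra3, Gabra4, Gabra5, Gabra6, Gabrb1, Gabrb2 and Gabrd, encode subunits of the GABA-A receptor and are 8 of 14218 genes named on the array. They were measured by the 12 probe sets whose platform annotation names 1 of these genes and no other, of 31042 probe sets that are not controls. Of the 12, 11 passed a filter on low signal (mean log2 signal above 6.62, the 40th percentile), as did 18625 probe sets in all. The probe set of Gabra3 did not pass and is described by its values. Expression was measured on 1-colour Affymetrix arrays, 1 per animal, in male Sprague Dawley rats aged 20 weeks and weighing 250 to 300 g. In the isoflurane group 10 rats breathed oxygen with 2% isoflurane (1.4 MAC, the unit of anaesthetic potency) for 15 minutes, and in the oxygen group 10 rats breathed pure oxygen for the same time. All rats recovered for 6 hours before tissue labelled brain cortex was taken. Since each array came from its own animal, p-values reflect variation among animals together with that in the tissue taken from each. The number of arrays limits the precision.

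GABA-A receptors are pentameric chloride channels that carry fast inhibition in the brain, and volatile anaesthetics such as isoflurane strengthen their response to GABA. Each receptor combines alpha and beta subunits, between which GABA binds, usually with a gamma or a delta subunit. The alpha6 subunit marks cerebellar granule cells, the alpha5 subunit is known mainly from the hippocampus and deep cortical layers, and the delta subunit belongs to receptors outside synapses that carry tonic inhibition, with alpha6 in granule cells and with alpha4 in the forebrain.

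The tissue label does not describe all arrays alike. Arrays were parted by Pcp2, a gene of cerebellar Purkinje cells, at a signal of 12 on the log2 scale. The 11 arrays above it, from isoflurane replicates 1, 3, 7, 8 and 9 and oxygen replicates 5 to 10, are called cerebellum-like. The 9 below it, from isoflurane replicates 2, 4, 5, 6 and 10 and oxygen replicates 1 to 4, are called cortex-like. The nearest arrays on either side were oxygen replicate 7 at 13.60 and isoflurane replicate 10 at 10.67. All 7 measured granule cell markers and, besides Pcp2 itself, the 4 other Purkinje cell markers were higher on every cerebellum-like array than on any cortex-like array, while 5 of 7 cortical excitatory neuron markers ran the other way without overlap. Fezf2, which specifies deep-layer projection neurons of the cortex, had 1.31 to 6.96 on cerebellum-like and 8.69 to 9.43 on cortex-like arrays, so a defining cortical marker was low on the 11 arrays. Of 4 striatal markers Drd1, Drd2 and Adora2a were also higher on every cortex-like array, and Ppp1r1b overlapped between the sets. Levels below are log2 of the MAS5 signal, whose trimmed mean lay between 500.1 and 500.2 on each array. Signals of different probe sets are not compared, since each has its own sensitivity. In tissue RNA, fewer cells of a type and less RNA per cell cannot be told apart.

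Between the sets, Gabra6 and Gabrd were higher on the cerebellum-like arrays, and Gabra5 and Gabra2 higher on the cortex-like arrays. In all, 7 of the 12 probe sets did not overlap between the sets, 5 of them higher on cerebellum-like and 2 higher on cortex-like arrays. Among all tested probe sets 18.8% did not overlap, 9.47% being higher on cerebellum-like and 9.34% on cortex-like arrays. The sets were made from the data, and Gabra6 was among the genes by which they were first noticed, so these levels are a description without a test.

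**Figure D1:**
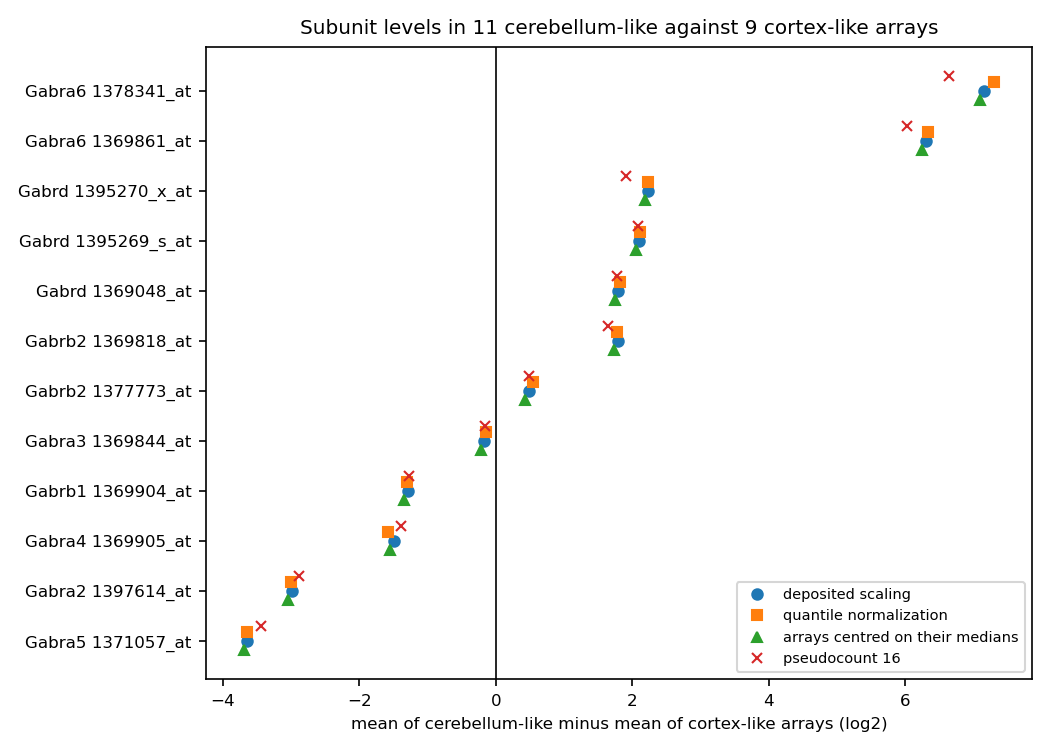
Cerebellum-like minus cortex-like difference in mean log2 signal for the 12 probe sets, over 11 and 9 arrays, with the deposited scaling (circles) and under 3 alternatives (other marks). In the deposited scaling the differences run from 7.16 for Gabra6 to -3.64 for Gabra5.

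Gabra6 encodes the alpha6 subunit. Its probe set 1378341_at had log2 signals of 13.95, 14.01, 14.10, 13.94 and 13.47 on the cerebellum-like isoflurane arrays (replicates 1, 3, 7, 8 and 9) and of 13.40 to 13.84 with a median of 13.58 on the 6 cerebellum-like oxygen arrays. On the cortex-like arrays it had 2.97, 4.68, 4.81, 3.44 and 10.70 after isoflurane (replicates 2, 4, 5, 6 and 10) and 8.33, 8.35, 7.00 and 8.85 after oxygen (replicates 1 to 4). Every cerebellum-like array lay above every cortex-like array, and among the cortex-like arrays isoflurane replicate 10 was the highest while the other 4 isoflurane arrays were below all oxygen arrays. The mean was 13.73 ± 0.26 on cerebellum-like arrays (SD, n = 11) and 6.57 ± 2.70 on cortex-like arrays (SD, n = 9), a difference of 7.16. No fold is given, because the linear signal was only 7.85 to 28.0 on 4 of the 9 cortex-like arrays, and the difference was 8.57 among the isoflurane arrays and 5.46 among the oxygen arrays. The second Gabra6 probe set, 1369861_at, gave 12.91 ± 0.42 on cerebellum-like and 6.61 ± 1.35 on cortex-like arrays, a difference of 6.31. Ordered by its mean, 1378341_at was highest on cerebellum-like isoflurane arrays (13.89 ± 0.25), then cerebellum-like oxygen (13.59 ± 0.20), cortex-like oxygen (8.13 ± 0.79) and cortex-like isoflurane arrays (5.32 ± 3.11), and of these neighbours the groups overlapped within each set and not between the sets.

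**Figure D2:**
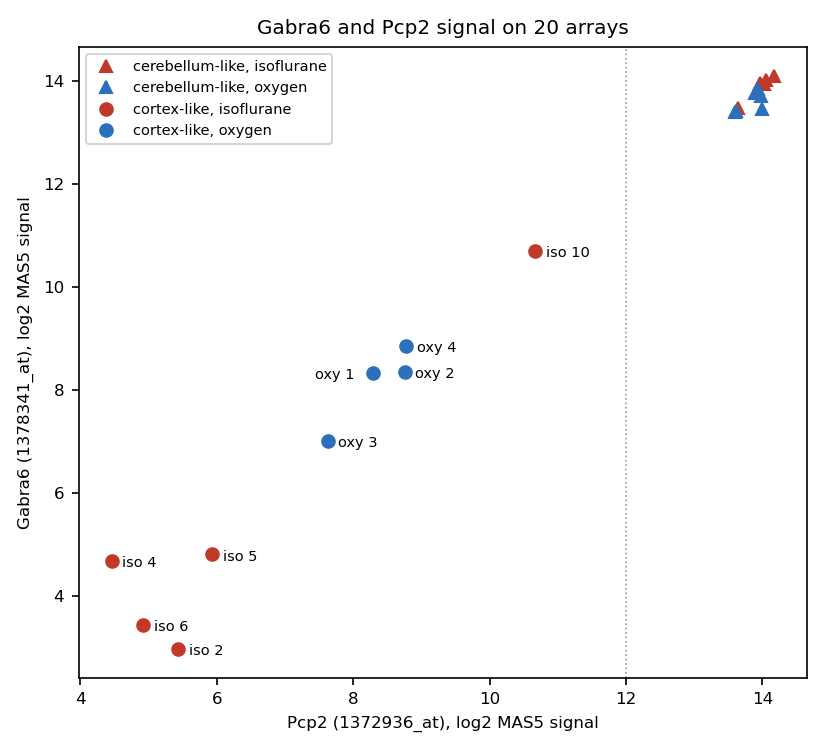
Log2 signal of Gabra6 (probe set 1378341_at) against log2 signal of Pcp2 on the 20 arrays, with isoflurane arrays in red, oxygen arrays in blue, cerebellum-like arrays as triangles and cortex-like arrays as circles, and the dotted line at the Pcp2 signal that parts the sets. Isoflurane replicate 10 has the highest Pcp2 and Gabra6 of the 9 cortex-like arrays, and isoflurane replicates 2, 4, 5 and 6 have the lowest.

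The remaining Gabra6 signal on the cortex-like arrays went with that of other cerebellar genes. On isoflurane replicate 10 the linear signal of 1378341_at was 12.1% of its cerebellum-like mean, beside 10.6% for Pcp2 and 9.33% for the granule cell gene Fat2. On isoflurane replicates 2, 4, 5 and 6 it was 0.057%, 0.19%, 0.20% and 0.078%, where Pcp2 stood at 0.28%, 0.14%, 0.40% and 0.20%. On oxygen replicates 1 to 4 it was 2.33%, 2.36%, 0.93% and 3.35%, beside Pcp2 at 2.04%, 2.82%, 1.29% and 2.85%. By 1378341_at and by Pcp2 the arrays thus fell into the same 3 levels, with 1 array at the top, the 4 oxygen arrays between and the 4 other isoflurane arrays at the bottom. Below isoflurane replicate 10 this order did not hold for every cerebellar gene. The other Gabra6 set, 1369861_at, stood at 0.82% and 0.85% on isoflurane replicates 4 and 5, above the 0.76% of oxygen replicate 3. The granule cell gene Neurod1 stood at 6.14% on isoflurane replicate 2, between oxygen replicates 3 (5.95%) and 1 (6.37%). On isoflurane replicates 4, 5 and 6 it stood at 4.59%, 5.93% and 4.37%, far above 1378341_at.

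Gabrd encodes the delta subunit. Its probe set 1369048_at had 12.04, 12.13, 12.06, 12.02 and 12.00 on the cerebellum-like isoflurane arrays (replicates 1, 3, 7, 8 and 9) and 11.90 to 12.27 with a median of 12.09 on the cerebellum-like oxygen arrays. On the cortex-like arrays it had 10.09, 10.15, 10.05, 10.29 and 10.54 after isoflurane (replicates 2, 4, 5, 6 and 10) and 10.22, 10.16, 10.22 and 10.78 after oxygen (replicates 1 to 4). The sets did not overlap, and within each set the treatment groups did. The difference was 1.80 or 3.48-fold, with a mean of 12.08 ± 0.11 on cerebellum-like arrays (SD, n = 11) and 10.28 ± 0.23 on cortex-like arrays (SD, n = 9). The probe sets 1395269_s_at and 1395270_x_at, whose names end in the suffixes Affymetrix gives to sets that may bind more than 1 transcript, differed by 2.10 and 2.24. Unlike Gabra6, Gabrd kept a clear signal on the cortex-like arrays, where 1369048_at ran from 24.5% to 40.6% of its cerebellum-like mean.

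The upstream sequences of Gabra6 and Gabrd are shown because both genes were higher on every cerebellum-like array. They are the 250 bases before the start of the transcript that RefSeq lists on the rat assembly GRCr8, read 5′ to 3′ on the strand of the gene, with matches to the searched motifs in capitals. The motifs were CAGATG (an E-box of neuronal bHLH factors), TTGGCA (a half-site of the NFI factors), GGGCGG (GC box), TATAAA (known as the TATA box) and TGACGTCA (CRE), sought on both strands, with overlapping matches counted. For Gabra6 the start used is not the outermost start of the gene.
Gabra6, chr10:27327235-27327484, minus strand: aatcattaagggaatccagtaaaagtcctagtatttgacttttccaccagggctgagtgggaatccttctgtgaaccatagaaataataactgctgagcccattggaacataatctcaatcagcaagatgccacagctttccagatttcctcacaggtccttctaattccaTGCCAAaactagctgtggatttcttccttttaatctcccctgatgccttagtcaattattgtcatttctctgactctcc
Gabrd, chr5:171252710-171252959, minus strand: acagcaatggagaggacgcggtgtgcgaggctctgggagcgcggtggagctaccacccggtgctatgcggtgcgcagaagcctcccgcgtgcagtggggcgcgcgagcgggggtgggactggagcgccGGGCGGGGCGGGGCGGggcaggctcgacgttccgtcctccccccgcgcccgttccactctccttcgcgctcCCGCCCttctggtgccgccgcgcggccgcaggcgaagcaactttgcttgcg
The Gabra6 window held 1 match, to the NFI half-site on the opposite strand, 79 bases before the start, and 41.2% of its bases were G or C. The Gabrd window held 4 matches to the GC box, 3 of them overlapping on the gene's strand, and its G and C share was 74.0%. Of 33469 rat promoter windows of the same length, 12% held the NFI half-site, 30.5% the GC box, 14% the E-box, 12.9% the TATA box and 1.59% the CRE, and the median G and C share was 51.2%. These 2 windows shared no searched motif, and a match is a match of letters alone.

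Gabra5 encodes the alpha5 subunit. It had 5.64, 6.70, 6.42, 6.58 and 7.88 on the cerebellum-like isoflurane arrays (replicates 1, 3, 7, 8 and 9) and 5.14 to 8.59 with a median of 7.12 on the cerebellum-like oxygen arrays. It had 10.40, 10.45, 10.73, 10.20 and 10.36 on the cortex-like isoflurane arrays (replicates 2, 4, 5, 6 and 10) and 10.49, 10.87, 10.76 and 10.75 on the cortex-like oxygen arrays (replicates 1 to 4). All cortex-like arrays were above all cerebellum-like arrays and lay close together, while the cerebellum-like arrays were spread widely in both treatment groups. The mean was 6.92 ± 1.04 on cerebellum-like arrays (SD, n = 11) and 10.56 ± 0.23 on cortex-like arrays (SD, n = 9), a difference of -3.64, with the cerebellum-like mean close to the filter of 6.62.

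Gabra2 encodes the alpha2 subunit, a forebrain subunit of synaptic receptors. It had 7.32, 7.86, 7.43, 7.23 and 7.47 on the cerebellum-like isoflurane arrays (replicates 1, 3, 7, 8 and 9) and 6.51 to 8.53 with a median of 7.72 on the cerebellum-like oxygen arrays. On the cortex-like arrays it had 11.25, 11.13, 10.86, 10.52 and 10.55 after isoflurane (replicates 2, 4, 5, 6 and 10) and 10.15, 10.29, 10.31 and 9.92 after oxygen (replicates 1 to 4). Neither the sets nor, within the cortex-like set, the treatment groups overlapped. The mean was 7.56 ± 0.57 on cerebellum-like arrays (SD, n = 11) and 10.55 ± 0.45 on cortex-like arrays (SD, n = 9), so Gabra2 was 7.94-fold lower on the cerebellum-like arrays.

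Gabra4 encodes the alpha4 subunit, the forebrain partner of delta. It had 6.79, 7.29, 7.65, 7.28 and 6.58 on the cerebellum-like isoflurane arrays (replicates 1, 3, 7, 8 and 9) and 6.26 to 7.82 with a median of 6.88 on the cerebellum-like oxygen arrays. On the cortex-like arrays it had 9.05, 9.10, 9.00, 8.74 and 9.07 after isoflurane (replicates 2, 4, 5, 6 and 10) and 8.93, 7.42, 8.33 and 7.01 after oxygen (replicates 1 to 4). The cortex-like isoflurane arrays were tightly grouped, and the oxygen arrays ran from the level of the cerebellum-like arrays up to that of the isoflurane arrays. The set means differed by -1.49 and the sets overlapped.

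The beta subunits differed less. Gabrb1, the beta1 subunit, ran from 8.84 to 10.10 on the cerebellum-like and from 10.06 to 11.17 on the cortex-like arrays, and the sets overlapped at a mean difference of -1.29. Gabrb2 encodes the beta2 subunit and has a pair of probe sets. Probe set 1377773_at ran from 11.09 to 12.58 on cerebellum-like and from 11.69 to 12.09 on cortex-like arrays, a mean difference of 0.49. Probe set 1369818_at ran from 5.83 to 9.67 on cerebellum-like and from 5.45 to 8.74 on cortex-like arrays, a mean difference of 1.79. Both overlapped between the sets, and they disagree on the size of the difference. Gabra3, the alpha3 subunit, had 4.81 to 6.80 on cerebellum-like and 4.80 to 7.72 on cortex-like arrays, a difference of -0.17, and both set means were below the filter of 6.62.

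**Figure D3:**
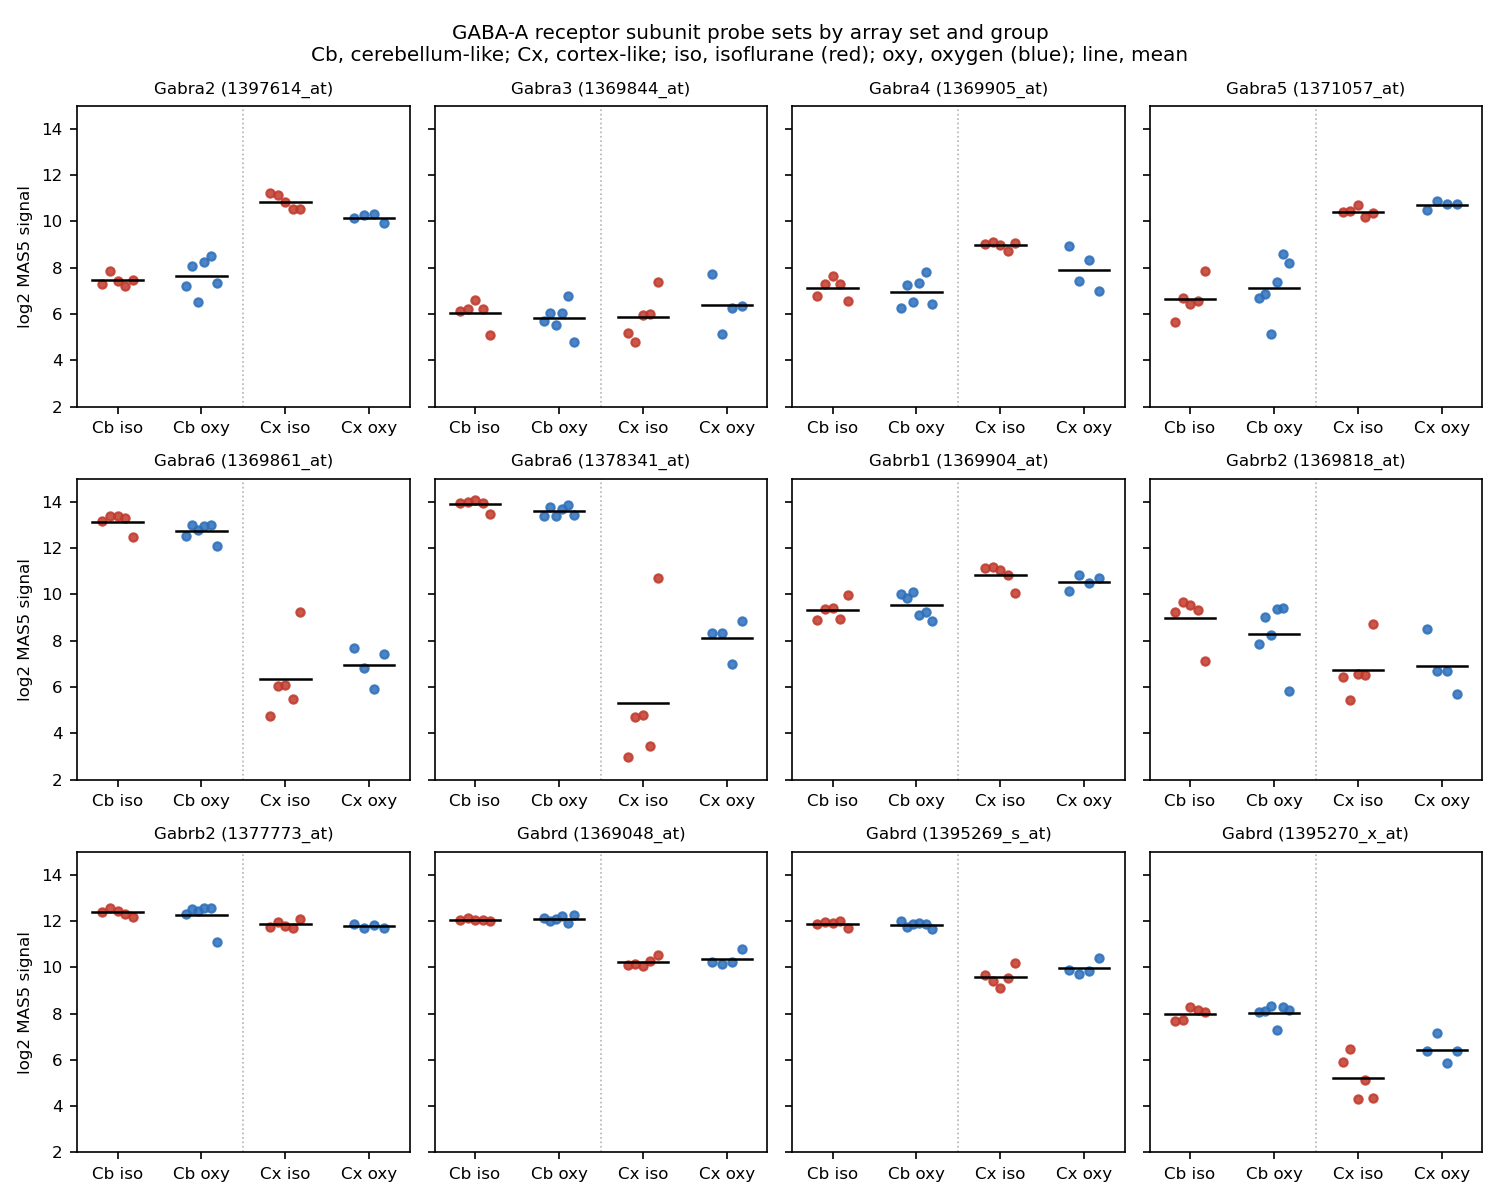
Log2 signal of the 12 probe sets on each of the 20 arrays, 1 panel per probe set, with isoflurane left of oxygen within the cerebellum-like and within the cortex-like set; each point is 1 array and each bar a group mean. Gabra6 runs from 2.97 to 14.10 over the arrays, whereas Gabrb2 (1377773_at) stays between 11.09 and 12.58.

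By genomic order in RefSeq's GRCr8 annotation, the subunit genes lie partly in clusters. Gabra6 and Gabrb2 are on chromosome 10 with 0 protein-coding genes between them, and of this pair Gabra6 alone did not overlap between the sets. Gabrb1 and Gabra4 adjoin on chromosome 14 with Gabra2 close by, separated from Gabra4 by 1 protein-coding gene, and all 3 had a higher mean on the cortex-like arrays. Gabra5 lies on chromosome 1, Gabrd on chromosome 5 and Gabra3 on chromosome X.

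The labelled groups ask which subunits differed 6 hours after isoflurane. With the array set as a block, 0 of 11 subunit probe sets passed an adjusted p of 0.05 in limma, and 2 had an unadjusted p under 0.05, Gabra4 and Gabrd (1395270_x_at). Among all 18625 probe sets tested 7.37% passed, 2.58% being higher and 4.79% lower after isoflurane, and 27.1% had an unadjusted p under 0.05. The share was 0.397% without the block, again with 0 of 11 subunit probe sets, of which 0 had an unadjusted p under 0.05. The median change of the 11 was -0.06, beside 0.00 over all probe sets tested. Both Gabra6 sets and Gabrd (1395270_x_at) passed the filter on low signal through the cerebellum-like arrays. Their cortex-like means lay below it, at 6.57 and 6.61 for Gabra6 and 5.77 for Gabrd (1395270_x_at). Their fits over both sets thus rest partly on signal below the filter. For Gabrd (1395270_x_at) the change was -0.06 within the cerebellum-like and -1.21 within the cortex-like arrays.

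The changes, given as isoflurane minus oxygen on the log2 scale with adjusted p from limma over 20 arrays, were as follows among the alpha subunits. Gabra4 averaged 8.05 after isoflurane and 7.33 after oxygen, and its change with the set as a block was 0.58 ± 0.25 (SE, adjusted p = 0.142). Gabra2 changed by 0.21 ± 0.22 (SE, adjusted p = 0.562) and Gabra5 by -0.41 ± 0.32 (SE, adjusted p = 0.432). None of these 3 passed. Gabra6 had -1.10 ± 0.71 (SE, adjusted p = 0.334) in 1378341_at and -0.06 ± 0.40 (SE, adjusted p = 0.943) in 1369861_at. The changes of 1378341_at had opposite signs in the 2 sets.

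None of the beta and delta subunits passed the same test. Gabrb1 had 0.03 ± 0.19 (SE, adjusted p = 0.947), and Gabrb2 had 0.31 ± 0.49 (SE, adjusted p = 0.722) in 1369818_at and 0.11 ± 0.14 (SE, adjusted p = 0.660) in 1377773_at. Gabrd had -0.08 ± 0.08 (SE, adjusted p = 0.543) in 1369048_at, its brightest set, -0.15 ± 0.12 (SE, adjusted p = 0.440) in 1395269_s_at and -0.58 ± 0.27 (SE, adjusted p = 0.181) in 1395270_x_at. For Gabra3, fitted without the filter on low signal, the change was -0.11 ± 0.35 (SE, adjusted p = 0.903).

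**Figure D4:**
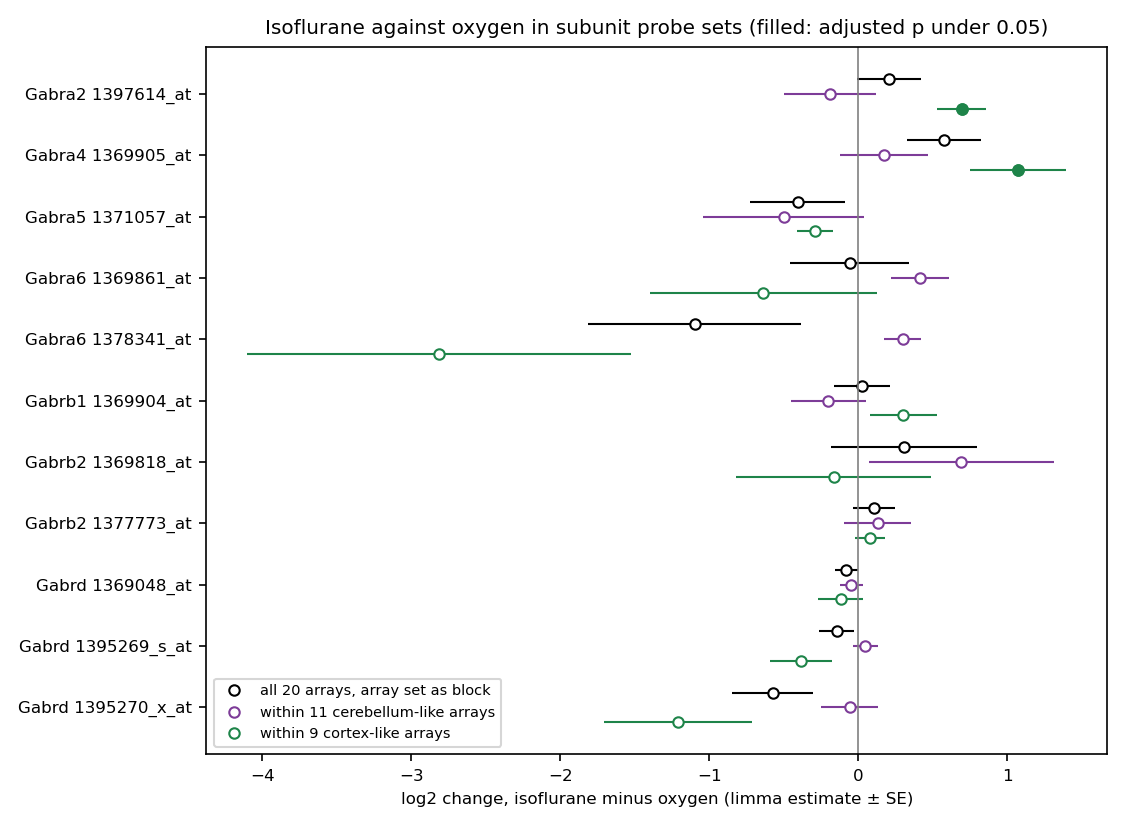
Isoflurane minus oxygen change in log2 signal of the 11 tested subunit probe sets, with the standard error as bars, over 20 arrays with the set as a block (black), within the cerebellum-like arrays (purple) and within the cortex-like arrays (green). Filled marks passed an adjusted p of 0.05. Only Gabra2 (0.69) and Gabra4 (1.07) within the cortex-like arrays are filled.

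Within the cerebellum-like arrays, 5 after isoflurane and 6 after oxygen, 0 of the 11 probe sets passed in limma, as was the case for 0% of all 18625 probe sets (12.8% had an unadjusted p under 0.05). Gabra6 had the lowest p of the subunits. Its set 1378341_at averaged 13.89 ± 0.25 after isoflurane and 13.59 ± 0.20 after oxygen, a change of 0.30 ± 0.12 (SE, adjusted p = 0.361), and 4 of 5 isoflurane arrays were above the oxygen mean. Its set 1369861_at changed by 0.42 ± 0.19 (SE, adjusted p = 0.392), also with 4 of 5. Isoflurane replicate 9 was the array below the mean in both, and without it 1378341_at changed by 0.41 (adjusted p = 0.0366, limma) and 1086 of 18625 probe sets passed. On that array the log2 3'/5' ratio of the Gapdh control transcript, a sign of RNA quality, was 0.46, the highest of the cerebellum-like arrays. The other subunits had changes between -0.50 for Gabra5 and 0.69 for Gabrb2 (1369818_at), with adjusted p of at least 0.610.

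Within the cortex-like arrays, 5 after isoflurane and 4 after oxygen, Gabra2 and Gabra4 were higher after isoflurane, 2 of the 11 probe sets. That is a share near the background, since 18.6% of all probe sets passed in limma, 11.2% being higher and 7.42% lower. At an unadjusted p under 0.05 there were 4 of 11, beside 35% of all. Both Gabra6 sets and Gabrd 1395270_x_at had means below the filter of 6.62 on these arrays and had passed it through the cerebellum-like arrays. Of the 8 subunit probe sets whose own cortex-like mean exceeded it, a restriction chosen after seeing the data, 2 passed, beside 18.8% of all such probe sets. Gabra2 averaged 10.86 ± 0.33 after isoflurane and 10.17 ± 0.18 after oxygen, a change of 0.69 ± 0.16 (SE, adjusted p = 0.0177), and all 5 isoflurane arrays were above all 4 oxygen arrays, as was so in 1 direction or the other for 13.2% of all probe sets. Gabra4 averaged 8.99 ± 0.14 after isoflurane and 7.92 ± 0.87 after oxygen, a change of 1.07 ± 0.32 (SE, adjusted p = 0.0402), with 5 of 5 isoflurane arrays above the oxygen mean and overlapping groups. Each array left out in turn, Gabra2 passed in 8 of 9 fits and missed without oxygen replicate 4 (0.61, adjusted p = 0.0536). Gabra4 passed in 2 of 9, those without oxygen replicate 1 (1.41, adjusted p = 0.00447) or isoflurane replicate 10 (1.05, adjusted p = 0.0342), and in the others its change ran from 0.77 to 1.21 with adjusted p up to 0.111.

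A fit without the arrays that stood apart cannot decide on the changes of Gabra2 and Gabra4, since it leaves 1 isoflurane array. Isoflurane replicates 2, 4, 5 and 6 differed from the other arrays in an earlier analysis of these data, and without them 1 isoflurane array, assumed to vary like the oxygen arrays, is set against 4 oxygen arrays. Gabra2 then changed by 0.38 and Gabra4 by 1.15, each with an adjusted p of 0.902 in limma, and 0 of 18625 probe sets passed (4.7% had an unadjusted p under 0.05). With the 3'/5' ratio of the Gapdh control transcript as a covariate, a sign of RNA quality, Gabra2 changed by 0.72 (adjusted p = 0.373) and Gabra4 by 0.42 (adjusted p = 0.698), and again 0 probe sets passed. That ratio, on the log2 scale, lay between 0.24 and 0.33 on the cortex-like isoflurane arrays. It was 0.30, 0.48, 0.40 and 0.38 on oxygen replicates 1 to 4. The median log2 signal was 7.46, 7.22, 7.23 and 7.20 on these oxygen arrays and 7.42 to 7.57 on the cortex-like isoflurane arrays. Gabra4 was also higher on oxygen replicate 1 (8.93) than on replicates 2 to 4 (7.42, 8.33 and 7.01). Gabra2 on replicate 1 (10.15) lay among the others (10.29, 10.31 and 9.92). The part of these differences in the result was not tested.

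Of 36 tested markers of the listed cell types, 6 (16.7%) passed within the cortex-like arrays in limma, a share near the 18.6% of all probe sets. The 36 include Pcp2, by which the sets were parted. They also include Fat2, En2 and Zic1, whose cortex-like means lay below the filter on low signal. These granule cell markers had passed it through the cerebellum-like arrays, so the share rests partly on such members. Of 6 interneuron markers Gad1 and Gad2 were higher and Sst lower after isoflurane, and the summed linear signal of the list ran from 15818 to 17741 after isoflurane and from 15577 to 16131 after oxygen. Of 6 tested cortical excitatory neuron markers Neurod6 was lower, with sums from 17404 to 21640 after isoflurane and from 19176 to 21929 after oxygen. Of 3 astrocyte markers Gfap was lower (-0.78, adjusted p = 0.0132, limma), with sums from 20552 to 24339 after isoflurane and from 22123 to 29579 after oxygen. Ttr, the 1 choroid plexus marker, was lower too (-2.97, adjusted p = 0.0179, limma), at 197 to 765 after isoflurane and 670 to 12900 after oxygen. None of the 6 tested granule cell or 5 Purkinje cell markers passed, which cannot decide for Fat2, En2 and Zic1, given their low signal here. Yet isoflurane replicates 2, 4, 5 and 6 lay below every oxygen array in Cbln1, Fat2, En2, Pcp2, Calb1 and Car8. Isoflurane replicate 10 lay above every oxygen array in the same markers. For Pcp2 the replicates 2, 4, 5 and 6 had 4.46 to 5.93, replicate 10 had 10.67 and the oxygen arrays had 7.63 to 8.78. In Neurod1, Zic1, Zic2, Itpr1 and Rgs8 the replicates 2, 4, 5 and 6 overlapped the oxygen arrays. The granule cell sum ran from 1099 to 4154 after isoflurane and from 1464 to 2558 after oxygen. The Purkinje cell sum ran from 8289 to 13684 after isoflurane and from 9806 to 10496 after oxygen. The part of these markers in the result was not tested.

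Gabra6 is described without a test within the cortex-like set, where its means lay below the filter. Over all 9 arrays the isoflurane mean minus the oxygen mean was -2.81 in 1378341_at and -0.64 in 1369861_at, and without isoflurane replicates 2, 4, 5 and 6 it was 2.57 and 2.29, opposite in sign. Pcp2, by the percentages above, was also highest on isoflurane replicate 10 and lowest on isoflurane replicates 2, 4, 5 and 6. Its part in the result was not tested. Isoflurane replicate 10 also bore on subunits above the filter. Without it, 4 of the 8 such probe sets passed in limma, beside 34% of all such probe sets. Besides Gabra2 and Gabra4 these were Gabrb1 (0.50, adjusted p = 0.0219) and Gabrd in 1395269_s_at (-0.53, adjusted p = 0.0286).

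The other subunits passed no test over the 9 cortex-like arrays. Gabra5 had -0.29 ± 0.12 (SE, adjusted p = 0.110, limma), and Gabrb1 had 0.30 ± 0.23 (SE, adjusted p = 0.366). Gabrd had -0.12 in 1369048_at and -0.38 in 1395269_s_at, with adjusted p of 0.601 and 0.211. In 1395270_x_at, whose mean there lay below the filter, the difference was -1.21. Gabrb2 had -0.16 in 1369818_at and 0.08 in 1377773_at, of opposite sign.

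Whether the effect of isoflurane differed between the sets was tested as an interaction, the cerebellum-like minus the cortex-like change. In limma 0 of 11 subunit probe sets passed and 3 had an unadjusted p under 0.05, while 10.2% of all probe sets passed, 2.58% with a positive and 7.61% with a negative difference, and 27.5% had an unadjusted p under 0.05. Of the 8 subunit probe sets with a mean above the filter in each set 0 passed and 1, Gabra2, had an unadjusted p under 0.05, beside 9.88% of such probe sets that passed. For Gabra6 (1378341_at) the change was 0.30 in the cerebellum-like and -2.81 in the cortex-like arrays, the second from means below the filter. Gabra2 had -0.88 ± 0.39 (SE, adjusted p = 0.154) and Gabra4 -0.90 ± 0.47 (SE, adjusted p = 0.217). A difference between the sets in the response of Gabra2 and Gabra4 is thus not shown by this test. Without isoflurane replicate 10, Gabrd in 1395269_s_at passed (0.58, adjusted p = 0.0227), 1 of these 8, beside 23% of such probe sets. Gabra2 passed without oxygen replicate 7 (-1.11, adjusted p = 0.0386).

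The upstream sequences of Gabra4, which passed within the cortex-like set, and of Gabra5, which was higher on every cortex-like array, are shown for comparison with those above, with the same motifs in capitals. Gabra2 is named only. For Gabra5 the start used is not the outermost start of the gene.
Gabra4, chr14:36944497-36944746, plus strand: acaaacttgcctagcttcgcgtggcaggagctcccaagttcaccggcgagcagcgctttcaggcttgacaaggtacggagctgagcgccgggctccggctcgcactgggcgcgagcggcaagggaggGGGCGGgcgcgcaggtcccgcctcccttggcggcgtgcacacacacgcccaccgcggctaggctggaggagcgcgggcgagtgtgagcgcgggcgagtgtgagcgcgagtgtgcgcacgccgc
Gabra5, chr1:117516607-117516856, minus strand: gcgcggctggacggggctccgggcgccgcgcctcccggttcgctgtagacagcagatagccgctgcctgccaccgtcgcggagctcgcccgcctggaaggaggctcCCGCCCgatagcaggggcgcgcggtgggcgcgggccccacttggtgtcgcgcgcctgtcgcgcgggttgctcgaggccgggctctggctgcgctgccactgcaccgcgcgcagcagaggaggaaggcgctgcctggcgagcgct
Each window held 1 match to the GC box, which 30.5% of all windows hold, on the gene's strand in Gabra4, 123 bases before the start, and on the opposite strand in Gabra5, 144 bases before it. Their G and C shares were 71.6% and 76.4%, close to that of Gabrd and above the 41.2% of Gabra6. Among these 4 windows the high shares thus belonged to 1 gene that was higher on the cerebellum-like arrays and to 2 with a higher mean on the cortex-like arrays.

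The genes whose signal was most like that of each subunit were found by the lower of 2 Pearson correlations, over the 11 cerebellum-like and over the 9 cortex-like arrays, and are a description of arrays that share treatment and scaling. For Gabra6 they were Calb1, a calcium-binding protein of Purkinje cells (0.95 and 0.97), G3bp2 (0.95 and 0.93) and Cct8 (0.93 and 0.94). For Gabra4 they were Ermn, an oligodendrocyte cytoskeletal gene (0.92 and 0.93), Rgs2 (0.91 and 0.96) and Ablim1 (0.90 and 0.94). For Gabra2 they were Nudt4 (0.81 and 0.92), Enc1 (0.81 and 0.94) and Daam1 (0.79 and 0.84). For Gabra5 they were Synpr, a synaptic vesicle protein (0.87 and 0.89), St6galnac5 (0.89 and 0.87) and Khdrbs3 (0.86 and 0.91). Gabrb1 was most like Slc16a12 (0.92 and 0.88), Synj1 and Emsy, and Gabrb2 most like Smc6 (0.92 and 0.86), Plcb4 and Ppargc1a. Gabrd was most like Pdlim7 (0.87 and 0.80), Exosc5 and Inpp5j. No subunit was among the nearest genes of another.

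Among other genes of GABAergic transmission and receptor trafficking, 28 of 32 listed genes had a tested probe set, and with the set as a block 4 were lower and 0 higher after isoflurane in limma. That is 14.3% of the 28, all of them lower, beside 7.37% of all probe sets, 4.79% being lower. The list's median change was -0.13, beside 0.00 over all probe sets. Gabbr1 and Gabbr2 encode the subunits of the GABA-B receptor. Gabbr1 is given by the brightest of 4 tested probe sets and Gabbr2 by the brighter of 2, and their other sets are not described. Gabbr1 averaged 12.29 ± 0.18 after isoflurane and 12.55 ± 0.17 after oxygen on cerebellum-like arrays. On cortex-like arrays it averaged 12.17 ± 0.22 after isoflurane and 12.71 ± 0.17 after oxygen, and over both sets it fell by 0.39 ± 0.09 (SE, adjusted p = 0.0147). Gabbr2 fell by 0.33 ± 0.09 (SE, adjusted p = 0.0267). Iqsec3, an exchange factor of inhibitory synapses that binds gephyrin, fell by 0.76 ± 0.14 (SE, adjusted p = 0.00873). Hap1, which carries GABA-A receptors along microtubules, fell by 0.42 ± 0.12 (SE, adjusted p = 0.0344), and passed in 8 of 20 fits that each left out 1 array, missing without oxygen replicate 1, 2, 3, 4 or 10 or isoflurane replicate 1, 2, 3, 4, 5, 6 or 8. Gabbr2 passed in 19 of 20, missing without isoflurane replicate 3 (-0.30). None of the 4 passed with the 3'/5' ratio of Gapdh as a covariate, where 3 probe sets in all passed. There Iqsec3 had -0.55, Gabbr1 -0.27, Gabbr2 -0.24 and Hap1 -0.31, with adjusted p from 0.170 to 0.304 in limma. None passed without the block either, with changes of -0.65, -0.39, -0.25 and -0.42 in the same order and adjusted p of 0.265, 0.0522, 0.579 and 0.0989.

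Within the cerebellum-like arrays 0 of the 28 passed in limma, beside 0 of all 18625 probe sets. Of the 28, 6 (21.4%) had an unadjusted p under 0.05, beside 12.8% of all probe sets, and the list's median was -0.07. Within the cortex-like arrays 7 of the 28 (25%) passed, beside 18.6% of all probe sets. Of these 3 were higher, Gad1 (0.35), Gad2 (1.10) and Nlgn2 (0.99), which make GABA or join inhibitory synapses, and 4 were lower, Gabbr1 (-0.54), Hap1 (-0.66), Clptm1 (-0.72), which holds GABA-A receptors back in the endoplasmic reticulum, and Iqsec3 (-1.02). Gad1 and Nlgn2 had 2 tested probe sets each, of which only the brighter is described. The interaction passed for Gad2 (-1.12, adjusted p = 0.0199, limma) and Nlgn2 (-1.67, adjusted p = 0.00657), 7.14% of the 28 beside 10.2% of all probe sets. Without isoflurane replicates 2, 4, 5 and 6, 0 of the 28 passed with the set as a block, beside 0 of all 18625 probe sets. In that fit 6 (21.4%) had an unadjusted p under 0.05, beside 16.2% of all probe sets. There Iqsec3 had -0.66, Gabbr1 -0.25, Gabbr2 -0.45 and Hap1 -0.23 with adjusted p from 0.122 to 0.338 in limma.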

How the data were processed

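Total RNA of 20 rat tissue samples was hybridised as biotin-labelled cRNA, per the labels' protocols. The deposited values are linear array intensities (MAS5 signal). The submitters' processing notes name MAS5 and Affymetrix Expression Console, without versions or settings, which are not given in the sources used here. MAS5 scales each array to a common trimmed mean (2% trimmed from each end), so a change is relative to the average transcript. Detection calls were not used here, so low signal cannot be told from absence.

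Values under 1 were raised to 1 and log2 was taken. Of 31042 probe sets that are not controls, the 18625 whose mean log2 signal exceeded the 40th percentile were fitted by linear models in R 4.3.3 (limma 3.58.1, trended eBayes, isoflurane minus oxygen). Tests were two-sided, with Benjamini-Hochberg adjustment over all probe sets fitted and a threshold of 0.05. The array set was a block, fits within each set had no covariate, and an interaction compared them. Scripts were tested on simulated data. Of the probe sets, 20826 carry 1 gene symbol in the platform annotation, 436 carry several and 9780 carry none. RefSeq's table for GRCr8 gave upstream sequences for 7 of the 8 genes. Named were all subunit probe sets, up to 4 genes per direction with the lowest p among called genes of the GABA list, each gene by its brightest tested probe set, and the 3 genes most like each subunit. Alternatives were other normalizations, pseudocounts of 16 and 64, filters, eBayes settings, array weights, the 3'/5' ratio, blocks and arrays left out. The members, lists, sets and tests were chosen with earlier results of these data known. Python 3.11.15 with pandas 2.3.3 and matplotlib 3.10.9 made summaries and plots.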

Additional observations from a re-analysis of the deposited data

Results flagged for a closer look

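A sample was examined for a wide gap to the others of its group, by Dixon's 95% critical value. The 72 groups held 4 to 10 arrays of 1 probe set and treatment, within an array set or over both. Such a gap was found in 8 groups, each within 1 array set. Chance gives about 1 in 20 groups where arrays share 1 level, which groups over both sets often do not. Probe sets of a gene also share arrays. Isoflurane replicate 9 was low among the cerebellum-like isoflurane arrays in 3 probe sets. Its log2 3'/5' ratio of Gapdh was 0.46, where the other 4 arrays had 0.12 to 0.21. In Gabra6 it had log2 signals of 12.48 in 1369861_at, where the other 4 arrays had 13.16 to 13.39, and 13.47 in 1378341_at, where they had 13.94 to 14.10. In Gabrb2 (1369818_at) it had 7.11, where they had 9.24 to 9.67. Among the cortex-like isoflurane arrays, replicate 10 had 10.70 for Gabra6 (1378341_at) and the others 2.97 to 4.81, and replicate 6 had 8.74 for Gabra4 and the others 9.00 to 9.10. Among oxygen arrays, replicate 10 had 11.09 for Gabrb2 (1377773_at) in the cerebellum-like set, where the others had 12.31 to 12.57. Oxygen replicate 8 had 7.28 for Gabrd (1395270_x_at) in the same set, where the others had 8.08 to 8.34. Oxygen replicate 4 had 10.78 for Gabrd (1369048_at) in the cortex-like set, where the others had 10.16 to 10.22.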

How the results depend on the processing

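With the array set as a block, 0 of 11 subunit probe sets passed under all 14 alternatives and in all 20 fits without 1 array. Within the cerebellum-like arrays the count was 0 under 10 alternatives and 0 to 1 with an array left out. Within the cortex-like arrays, where 2 passed, it was 4 with arrays centred on their medians or array weights, 1 with the filter at the 60th percentile (Gabra4 was then not tested) or no intensity trend, 0 with the 3'/5' ratio as covariate or the 4 isoflurane arrays left out, and 0 to 6 with an array left out. The interaction count of 0 became 2 with centred arrays, 5 with array weights and 0 to 3 with an array left out. Calls over all 18625 probe sets moved too. In the cortex-like arrays 3469 passed in the main fit, 5243 with centring, 6787 with array weights and 6266 without isoflurane replicate 10. In the interaction these were 1897, 3899, 5815 and 4303 in the same order. The subunit counts include both Gabra6 sets and Gabrd 1395270_x_at, whose cortex-like means lay below the filter. In the main fits 2 passed without them in the cortex-like arrays and 0 in the interaction. Probe sets above the filter also changed call. In the cortex-like arrays Gabra5 passed with centring (-0.50) and Gabrb1 with array weights (0.44). In the interaction Gabrd 1395269_s_at passed with centring (0.68) and array weights (0.55), and Gabra2 (-1.17) and Gabra4 (-1.05) with array weights. With the 4 isoflurane arrays left out, 1 cortex-like isoflurane array remains, so that count cannot decide. Apart from the 60th percentile filter, the cause was not tested. Centring on medians shifts the median change of all probe sets to -0.21 in the cortex-like arrays and to 0.25 in the interaction. Quantile normalization or centring left 6 of the 12 probe sets without overlap between the sets (Gabrd 1395270_x_at then overlapped), against 7.

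The replicate numbers of the titles were not treated as pairs in the main fits. Correlations of same-numbered samples, as deviations from their group and set means, ran from -0.259 to 0.2304. They cannot decide on pairing, since samples with different numbers were not set beside them. With the replicate number as a block beside the set, 29 of 18625 probe sets and 0 subunit probe sets passed, against 1372 and 0 without the replicate block, and Iqsec3, Gabbr1, Gabbr2 and Hap1 were not called, with changes of -0.76, -0.39, -0.33 and -0.43, against -0.76, -0.39, -0.33 and -0.42 without the replicate block.

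Values that turned in sign were all uncalled and the cause was not tested. In the fit with the set as a block these were Gabrb1 (-0.049) with arrays centred, Gabra6 1369861_at with pseudocounts of 16 (0.015) and 64 (0.11), Gabra2 (-0.048), Gabrb1 (-0.087) and Gabrb2 1377773_at (-0.0035) with array weights, and Gabrb2 1369818_at (-0.22) with the 3'/5' ratio. With the 4 isoflurane arrays left out they were Gabra2 (-0.058), Gabra6 (0.84 and 0.81), Gabrb1 (-0.27) and Gabrd (0.0079 in 1369048_at and 0.087 in 1395269_s_at). Arrays left out singly gave ranges of -0.34 to 0.13 for Gabra6 1369861_at, -0.050 to 0.098 for Gabrb1 and -0.018 to 0.14 for Gabrb2 1377773_at.

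In the cerebellum-like arrays Gabrb2 1377773_at (-0.034) and Gabrd 1395270_x_at (0.062) turned with array weights, and Gabra4 (-0.11) and Gabrb1 (0.020) with the 3'/5' ratio. Arrays left out singly gave -0.10 to 0.19 for Gabrb2 1377773_at and -0.21 to 0.022 for Gabrd 1395270_x_at. In the cortex-like arrays Gabrb2 1377773_at (-0.13) turned with centring, Gabra5 (0.0087) with the 3'/5' ratio, and, with the 4 isoflurane arrays left out, Gabra6 (2.29 and 2.57), Gabrb1 (-0.50), Gabrb2 1369818_at (1.84) and Gabrd (0.20 and 0.22). Arrays left out singly gave -0.66 to 0.38 for Gabrb2 1369818_at and -0.20 to 0.026 for Gabrd 1369048_at. In the interaction Gabrb2 1377773_at (-0.069) and Gabrd 1369048_at (-0.012) turned with quantile normalization, Gabra5 (0.036) with centring and Gabrb2 1377773_at (-0.078) with array weights. With the 4 arrays left out these were Gabra6 (-1.87 and -2.27), Gabrb1 (0.30), Gabrb2 (-1.14 and -0.19) and Gabrd (-0.24 and -0.17). Arrays left out singly gave -0.61 to 0.082 for Gabra5, -0.18 to 0.12 for Gabrb2 1377773_at and -0.073 to 0.15 for Gabrd 1369048_at.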
